A study of Mus musculus with 12 samples.

Results

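The integrated stress response lowers protein synthesis through phosphorylation of the translation initiation factor eIF2α. The genes described here encode its kinases, the transcription factors it induces and the phosphatase subunits that end it. They are 10 of the 25097 genes measured: the 4 eIF2α kinase genes Eif2ak1, Eif2ak2, Eif2ak3 and Eif2ak4, the transcription factor genes Atf4, Atf5 and Ddit3, the pseudokinase gene Trib3, and the phosphatase subunit genes Ppp1r15a and Ppp1r15b. They were taken by gene symbol. All 10 passed the filter on low counts and were among the 12115 genes tested.

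Each kinase answers to its own signal: EIF2AK1, also called HRI, is held inactive by heme, EIF2AK2 (PKR) binds double-stranded RNA, EIF2AK3 (PERK) senses unfolded protein in the endoplasmic reticulum, and EIF2AK4 (GCN2) senses uncharged tRNA. Phosphorylated eIF2α slows most translation but favours that of a few mRNAs with upstream reading frames, among them Atf4. In erythroid cells HRI couples globin synthesis to the supply of heme, so the response is a textbook link between heme and translation. These libraries report mRNA levels; kinase activity, eIF2α phosphorylation and the proteins were not measured.

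The 12 RNA-seq libraries come from the G1E-ER-GATA-1 line, mouse erythroid precursors without a GATA-1 gene of their own, in which a fusion of GATA-1 with the estrogen receptor's hormone-binding part lets estradiol switch the factor on. The 4 groups, with 3 libraries each, were double-mutant cells with 1 µM beta-estradiol and 1 mM 5-aminolevulinic acid (5-ALA, the product of the ALAS enzymes and the first dedicated precursor of heme) for 48 h, double-mutant cells with estradiol alone for 48 h, WT cells with estradiol for 48 h, and untreated WT cells. The labels describe the mutation as one of cis-elements of Alas2, the erythroid ALAS gene, and the 5-ALA as given to rescue heme synthesis. All groups, the untreated one included, carry the fusion protein and grew with erythropoietin, Kit ligand-conditioned medium and puromycin. No group of untreated mutant cells was analysed here, so estradiol and genotype are compared only through the WT cells. The labels do not say how many clones the mutant group comes from, nor whether the libraries of a group are separate cultures, so p-values measure only the spread between libraries, which may be technical.

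Totals ranged over 20309085 to 43548387 expected counts per library. The 10 genes had from 321 expected counts, for Eif2ak3 in 1 estradiol-treated WT library, to 51398, for Ppp1r15b in 1 mutant library. CPM below are expected counts scaled to a common library size. Alas2, whose exons share 311 bases with Apex2 on the other strand, averaged 12.3 CPM in mutant cells with 5-ALA, 7.64 CPM in mutant cells, 4293 CPM in estradiol-treated WT cells and 5.12 CPM in untreated WT cells, so it was low in both mutant groups. The 10 erythroid markers summed to between 67822 and 73058 CPM in mutant cells with 5-ALA, 24361 and 25780 CPM in mutant cells, 75927 and 76814 CPM in estradiol-treated WT cells, and 712 and 729.9 CPM in untreated WT cells. The 6 mast cell and basophil markers summed to at most 0.613 CPM in both mutant groups and 2.12 CPM in estradiol-treated WT cells, but to between 134 and 149.7 CPM in untreated WT cells, nearly all of it Cpa3 (139 CPM), while Mcpt8, Fcer1a, Tpsb2 and Cma1 were at 0 there. The 6 megakaryocyte markers summed to 45.5 to 46.3 CPM with 5-ALA, 43.2 to 44.8 CPM in mutant cells, 75.3 to 75.98 CPM in estradiol-treated WT cells and 99.8 to 104 CPM in untreated WT cells, while granulocyte and macrophage (6 genes) and lymphocyte (5 genes) markers stayed at or below 1.84 CPM in sum. The 5 fibroblast markers summed to at most 0.722 CPM except in untreated WT cells, where Pdgfrb made up most of 11.3 to 11.7 CPM, and the part of such cells in the differences from untreated cells was not tested. In such bulk samples, fewer cells of a type and less RNA per cell cannot be told apart.

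The groups differed in RNA composition: globin genes took 6.16% to 6.57% of counts in mutant cells with 5-ALA, 2.24% to 2.38% in mutant cells, 6.56% to 6.62% in estradiol-treated WT cells and 0.0253% to 0.0284% in untreated WT cells. Small differences depended on the scaling, and the part of the globin genes in this was not tested. CPM here are scaled by TMM, which takes most genes as unchanged. Scaling by library totals moved the median log2 fold change of all genes by -0.34 for estradiol in WT cells, 0.15 for mutant over WT cells and -0.10 for 5-ALA in mutant cells, and log2(TPM + 1) moved it by -0.27, 0.19 and -0.19.

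The promoters of the 2 genes with the largest changes in the set with estradiol, Ppp1r15a and Eif2ak1, and of the 2 most changed between mutant and WT cells, Trib3 and Atf4, are printed to show which known motifs lie at these starts. They run from 250 bases before to 50 bases after the RefSeq transcription start, on the gene's strand, and come from RefSeq on build GRCm38.p6, at chr7:45526219-45526518 (minus strand), chr5:143817542-143817841 (plus), chr2:152344011-152344310 (minus) and chr15:80254934-80255233 (plus). Capitals mark motif matches.
Ppp1r15a: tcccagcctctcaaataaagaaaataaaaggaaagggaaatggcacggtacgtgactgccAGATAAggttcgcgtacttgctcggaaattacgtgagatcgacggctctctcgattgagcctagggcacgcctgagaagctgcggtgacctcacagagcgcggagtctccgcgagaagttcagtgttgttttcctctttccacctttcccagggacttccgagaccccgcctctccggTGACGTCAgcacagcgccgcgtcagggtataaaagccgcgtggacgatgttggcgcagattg
Eif2ak1: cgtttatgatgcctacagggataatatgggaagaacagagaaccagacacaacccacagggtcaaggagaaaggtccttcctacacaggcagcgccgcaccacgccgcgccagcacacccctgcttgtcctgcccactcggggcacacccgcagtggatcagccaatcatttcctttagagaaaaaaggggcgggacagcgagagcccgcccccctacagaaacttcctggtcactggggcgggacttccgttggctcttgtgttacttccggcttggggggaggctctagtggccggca
Trib3: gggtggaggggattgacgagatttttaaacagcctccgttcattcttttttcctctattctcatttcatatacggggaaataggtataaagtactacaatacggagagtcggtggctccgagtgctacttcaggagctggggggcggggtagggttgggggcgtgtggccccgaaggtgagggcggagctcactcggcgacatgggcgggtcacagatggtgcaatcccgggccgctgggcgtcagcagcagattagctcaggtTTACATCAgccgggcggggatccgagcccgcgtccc
Atf4: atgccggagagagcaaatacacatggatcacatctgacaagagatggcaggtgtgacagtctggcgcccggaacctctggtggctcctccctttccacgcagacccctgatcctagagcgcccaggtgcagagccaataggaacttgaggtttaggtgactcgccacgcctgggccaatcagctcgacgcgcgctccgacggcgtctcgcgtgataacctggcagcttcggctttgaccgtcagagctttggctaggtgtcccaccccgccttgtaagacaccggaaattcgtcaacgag

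RefSeq promoters were found for 9 of the 10 genes, and 4 motifs were searched on both strands. The C/EBP-ATF element, bound by ATF4 and CHOP with C/EBP partners, was written TGATGNAA and is in 3.97% of 32851 mouse promoter windows of this length. It matched once, in Trib3, as TTACATCA on the other strand, 14 bases after the start. The GATA element AGATAA (11.2% of windows) matched in Ppp1r15a, 190 bases before the start, and on the other strand in Ddit3, as TTATCT, 6 bases after it. The cAMP response element TGACGTCA (1.79%) matched in Ppp1r15a, 12 bases before the start. The AP-1 and MARE core TGANTCA (7.81%) matched in Ddit3, 242 bases before the start, and in Eif2ak3, 185 bases before it. No matches overlapped. The windows of Eif2ak1, Atf4, Atf5, Eif2ak2 and Eif2ak4 held none, which says only that these letters are not in those windows.

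**Figure D1:**
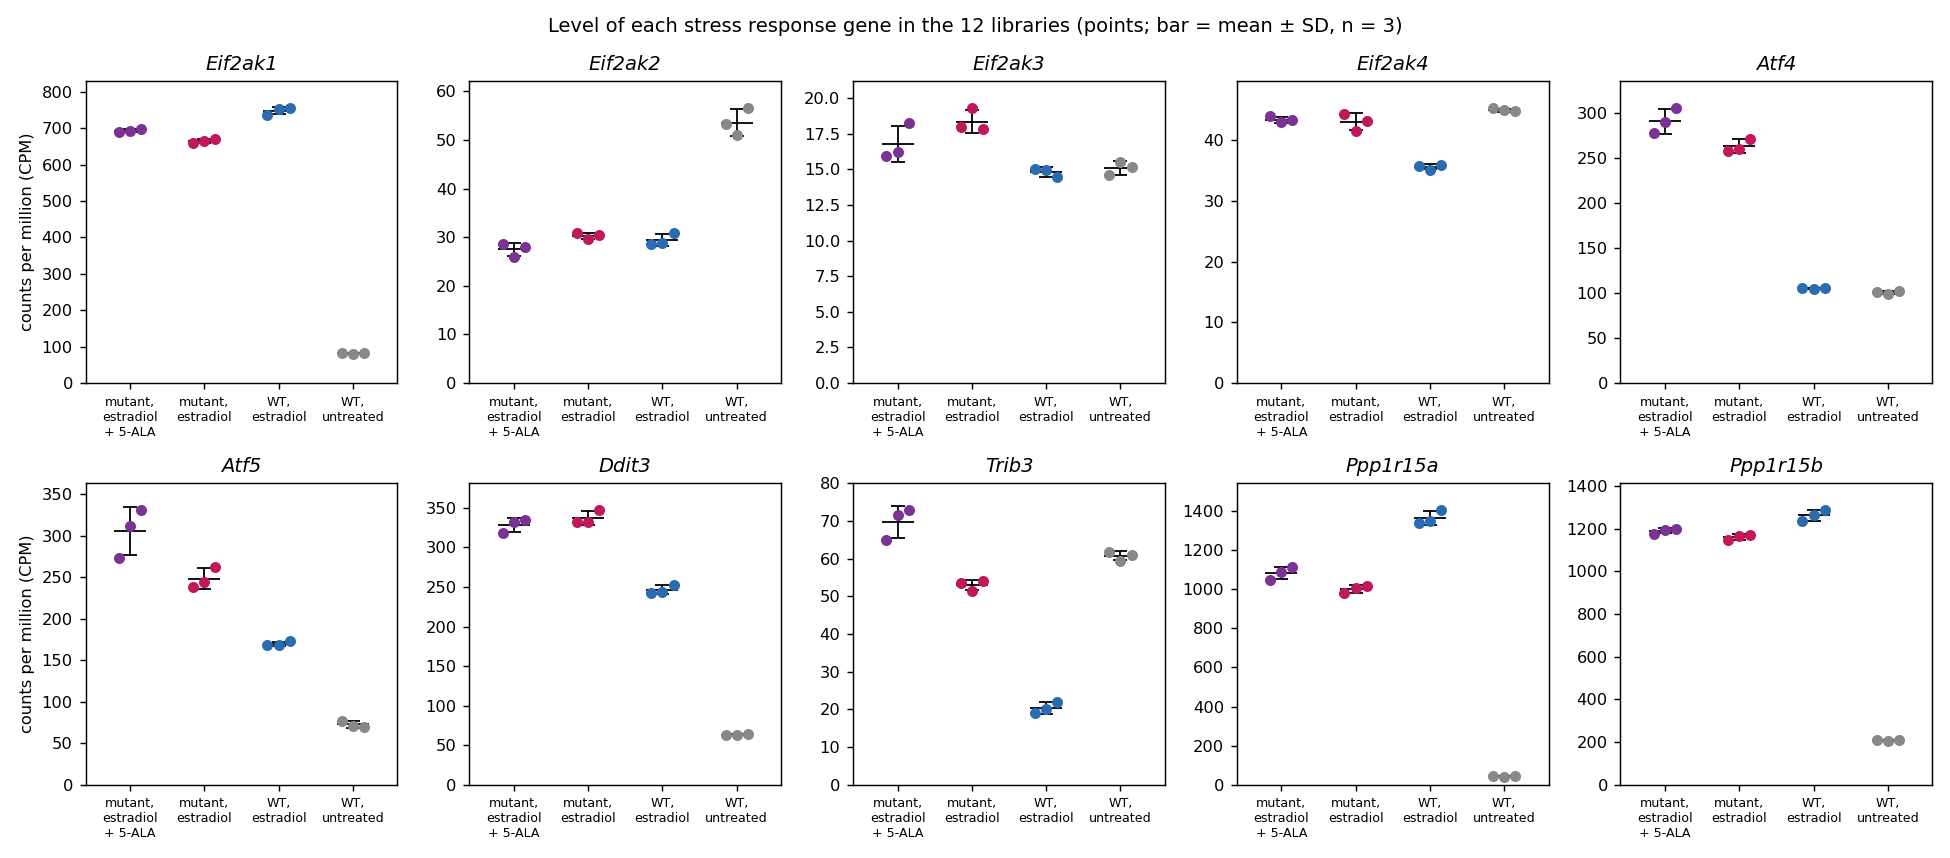
Level of each of the 10 genes in CPM (linear axis, starting at 0) in every library, by group; points are libraries and bars the mean ± SD of 3. Eif2ak1, Ddit3, Ppp1r15a and Ppp1r15b were low in untreated WT cells, Atf4 was high in both mutant groups, and Trib3 was lowest in estradiol-treated WT cells. The differences between mutant and WT cells with estradiol for Eif2ak1 and Ppp1r15b, and those between the 2 mutant groups for Eif2ak1, Ppp1r15b, Atf4 and Ppp1r15a, change direction with the scaling.

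The set held large changes with estradiol in WT cells, Ppp1r15a and Eif2ak1 foremost, and higher Atf4 and Trib3 in mutant cells. The largest change with 5-ALA over mutant cells was 0.40 on the log2 scale, for Trib3. With estradiol over untreated WT cells, 5 genes rose, 3 fell and 2 were not called, at an adjusted p below 0.05 in the edgeR quasi-likelihood test. Of all 12115 genes tested, 43.3% were called higher and 46.4% lower, 89.7% in all, so a call by itself sets a gene apart from few others. Between mutant and WT cells with estradiol, 6 rose, 3 fell and 1 was not called, against 35.1% called higher, 33.6% lower and 68.8% in all among the tested genes. With 5-ALA over mutant cells without it, 5 rose, 1 fell and 4 were not called, against 21.6%, 21% and 42.6%. Mutant cells with 5-ALA over estradiol-treated WT cells had 6 rises, 3 falls and 1 gene not called, against 33.3%, 29% and 62.3%.

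The sizes of the changes were also set beside those of all tested genes. The median log2 fold change of the 10 genes was 0.64 for estradiol in WT cells, 0.29 for mutant over WT cells, 0.05 for 5-ALA in mutant cells and 0.23 for mutant cells with 5-ALA over WT cells, beside medians of -0.03, -0.01, 0.01 and 0.01 over all genes. Without regard to sign, the medians of the 10 genes were 1.406, 0.3793, 0.1221 and 0.3089 in the same order. Those of all tested genes were 1.2015, 0.348, 0.156 and 0.2802. As a set, the 10 genes thus changed little more than all genes, and less for 5-ALA in mutant cells. Ppp1r15a had the largest change with estradiol in WT cells: 3.5% of tested genes had a larger absolute change. For Eif2ak1 this share was 12.6%. For mutant over WT cells, 7.15% of genes changed more than Trib3 and 7.78% more than Atf4. For 5-ALA in mutant cells, 18.5% changed more than Trib3, the most changed of the 10.

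**Figure D2:**
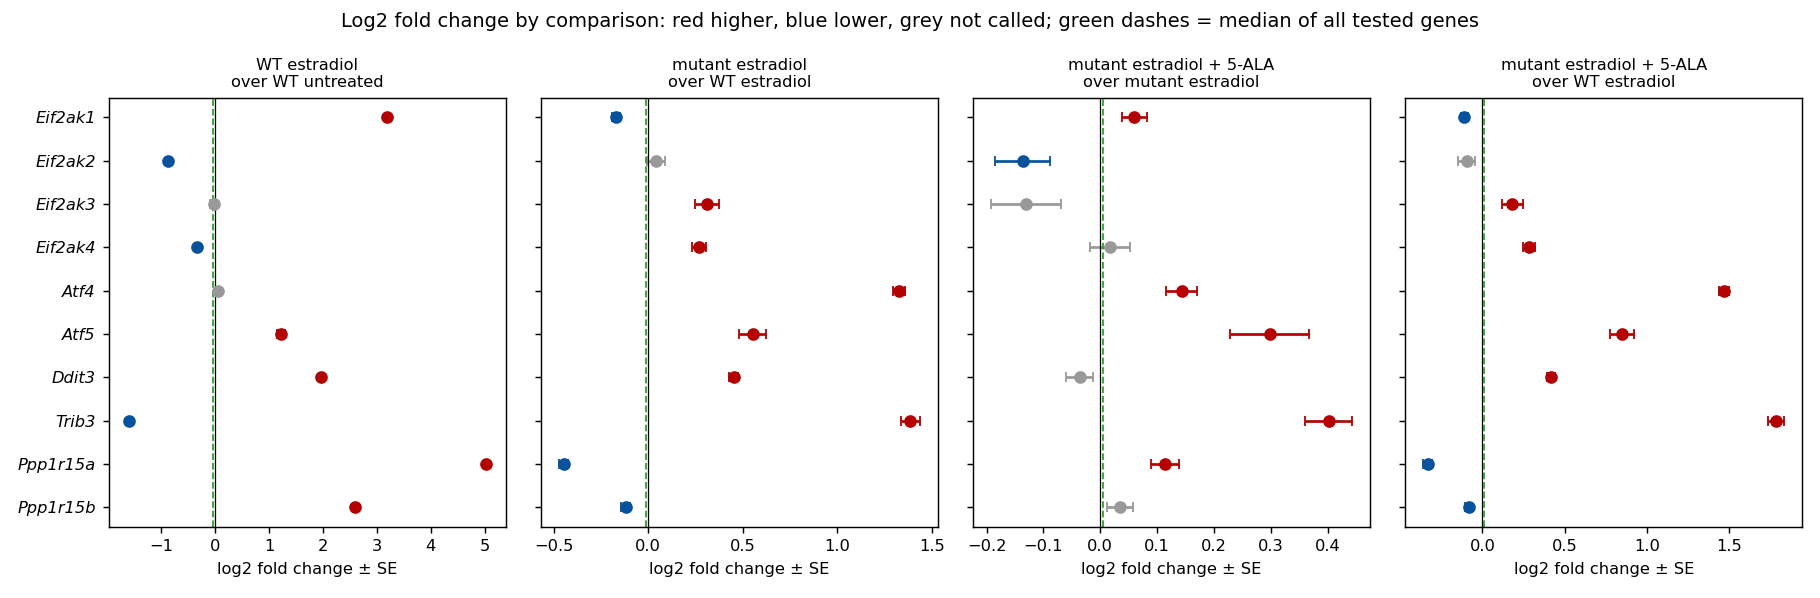
Log2 fold change (± approximate SE) of each gene in the 4 comparisons, the first-named group over the second; red is called higher, blue called lower, grey not called, and green dashes the median of all tested genes. Horizontal scales differ between panels. Ppp1r15a reached 5.02 with estradiol in WT cells, and Trib3 1.39 and Atf4 1.33 in mutant over WT cells. The largest change with 5-ALA over mutant cells was 0.40, for Trib3. The calls of Eif2ak1 and Ppp1r15b in mutant over WT cells, and those of Eif2ak1, Eif2ak2, Atf4, Atf5 and Ppp1r15a with 5-ALA, do not hold under every scaling.

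Among the kinases, Eif2ak1 was the one that rose with GATA-1 activation. The gene lies on chromosome 5 (GRCm38, 143817788 to 143904251, plus strand), and its exons share 172 bases with Ankrd61 and 487 with Aimp2 on the other strand, so some reads could belong to those genes, as the use of strand in counting is not given in the sources used here. It had 689, 693 and 696 CPM in mutant cells with 5-ALA, 659.8, 663 and 671 CPM in mutant cells, 736, 753 and 754 CPM in estradiol-treated WT cells, and 81.9, 80.8 and 83.6 CPM in untreated WT cells. Every library with estradiol was thus far above every untreated one, and the 3 estradiol groups, close together, did not overlap on this scale. Estradiol in WT cells gave a 9.10-fold rise (log2 fold change 3.19, SE 0.025, adjusted p = 3.61e-38).

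Eif2ak1 differed little between the groups with estradiol. Mutant cells were lower than estradiol-treated WT cells (log2 -0.17, SE 0.022, adjusted p = 6.85e-08) on the CPM scale. In TPM, the authors' abundance corrected for transcript length, the gene was at 271.8 ± 1.27 TPM in mutant cells and 267 ± 5.11 TPM in WT cells (SD, n = 3 each), and with library totals or log2(TPM + 1) the fall was lost, at log2 -0.016 and 0.024. With 5-ALA over mutant cells the log2 fold change was 0.06 (SE 0.022, adjusted p = 0.0289), a call kept under 9 of 23 alternatives and turned to -0.15 on the log2(TPM + 1) scale. Mutant cells with 5-ALA stayed below estradiol-treated WT cells under all 23 alternatives, at log2 -0.11 (SE 0.022, adjusted p = 7.07e-05; range -0.14 to -0.06).

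The other 3 kinase genes were lower in TPM in every group, and none was called higher with estradiol in WT cells. Eif2ak2 (chromosome 17, 78852564 to 78882573, minus strand), the PKR gene, had 25.997 to 28.5 CPM in mutant cells with 5-ALA, 29.6 to 30.9 CPM in mutant cells, 28.7 to 30.9 CPM in estradiol-treated WT cells and 50.97 to 56.5 CPM in untreated WT cells. It fell with estradiol, 1.83-fold (log2 -0.87, SE 0.045, adjusted p = 2.65e-17). Its value in mutant over WT cells was log2 0.04 (SE 0.048, adjusted p = 0.471), with overlapping libraries, but past the threshold with library totals (0.19, adjusted p = 0.000402) and on the log2(TPM + 1) scale (0.30, adjusted p = 0.000302). With 5-ALA over mutant cells it fell by 0.14 on the log2 scale (SE 0.048, adjusted p = 0.0218). This call was lost without the third mutant library (adjusted p = 0.0544) or the second library with 5-ALA (adjusted p = 0.106). It was also lost with the effective length offset. The value for mutant cells with 5-ALA over WT cells was log2 -0.10 (SE 0.049, adjusted p = 0.0889), past the threshold without the first library with 5-ALA (-0.12, adjusted p = 0.0486) and at 0.0016 on the log2(TPM + 1) scale. Its exons share 174 bases with Gm26637 on the other strand.

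Eif2ak3 (chromosome 6, 70844515 to 70905245, plus strand), the PERK gene, was the lowest of the 10. It had 15.9, 16.2 and 18.2 CPM in mutant cells with 5-ALA, 17.9, 19.3 and 17.9 CPM in mutant cells, 15.0, 15.0 and 14.4 CPM in estradiol-treated WT cells and 14.6, 15.5 and 15.2 CPM in untreated WT cells. The mutant libraries all lay above the WT libraries, and the WT groups overlapped each other. It rose in mutant over WT cells, 1.24-fold (log2 0.31, SE 0.063, adjusted p = 7.58e-05), and its difference between estradiol-treated and untreated WT cells was log2 -0.02 (SE 0.064, adjusted p = 0.76), or 0.02 with DESeq2 size factors and -0.28 (adjusted p = 0.000795) on the log2(TPM + 1) scale. For 5-ALA in mutant cells it was log2 -0.13 (SE 0.062, adjusted p = 0.0932), past the threshold without the third library with 5-ALA (-0.21, adjusted p = 0.0143) and on the log2(TPM + 1) scale (-0.32, adjusted p = 0.000778). In mutant cells with 5-ALA over WT cells it was at log2 0.18 (SE 0.064, adjusted p = 0.0156). This call was lost without the third library with 5-ALA (log2 0.13, adjusted p = 0.104) and with the DESeq2 Wald test (adjusted p = 0.105). The exons of Eif2ak3 share 485 bases with Gm43292 on the other strand, a gene not among those measured.

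Eif2ak4 (chromosome 2, 118388618 to 118475234, plus strand), the GCN2 gene, had 43.9, 42.9 and 43.2 CPM in mutant cells with 5-ALA and 44.4, 41.6 and 43.1 CPM in mutant cells, which overlapped. It had 35.7, 35.1 and 35.96 CPM in estradiol-treated WT cells and 45.2, 44.9 and 44.7 CPM in untreated WT cells. Estradiol-treated WT cells were thus the low group. Estradiol lowered it 1.26-fold in WT cells (log2 -0.34, SE 0.036, adjusted p = 7.52e-10), and it was higher in mutant over WT cells with estradiol, at log2 0.27 (SE 0.037, adjusted p = 1.97e-07). It was likewise higher in mutant cells with 5-ALA over WT cells (log2 0.28, SE 0.037, adjusted p = 8.83e-08). These 3 comparisons share the estradiol-treated WT libraries. For 5-ALA in mutant cells the value was log2 0.02 (SE 0.035, adjusted p = 0.736), turning to -0.22 on the log2(TPM + 1) scale.

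The balance within the kinase family shifted accordingly. Eif2ak1 made up 88.4%, 88.6% and 88.1% of the summed TPM of the 4 kinase genes in mutant cells with 5-ALA, 86.9%, 87.8% and 87.2% in mutant cells, 90.2%, 90.2% and 90.3% in estradiol-treated WT cells, and 39.9%, 39.2% and 39.8% in untreated WT cells. No library of one group reached the range of another, and a share within a library does not depend on how libraries are scaled. In untreated WT cells Eif2ak2 held 31.1% to 32.8% and Eif2ak4 20.3% to 22.1%, and no kinase gene held a majority. The summed kinase level was 277 ± 4.34 TPM in mutant cells with 5-ALA, 311 ± 2.93 TPM in mutant cells, 296 ± 5.53 TPM in estradiol-treated WT cells and 89.6 ± 1.099 TPM in untreated WT cells (SD, n = 3 each). The exact permutation test of the share, two-sided, gave p = 0.1 for each of the 4 comparisons, the smallest that 3 libraries against 3 allow, so it cannot pass 0.05.

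**Figure D3:**
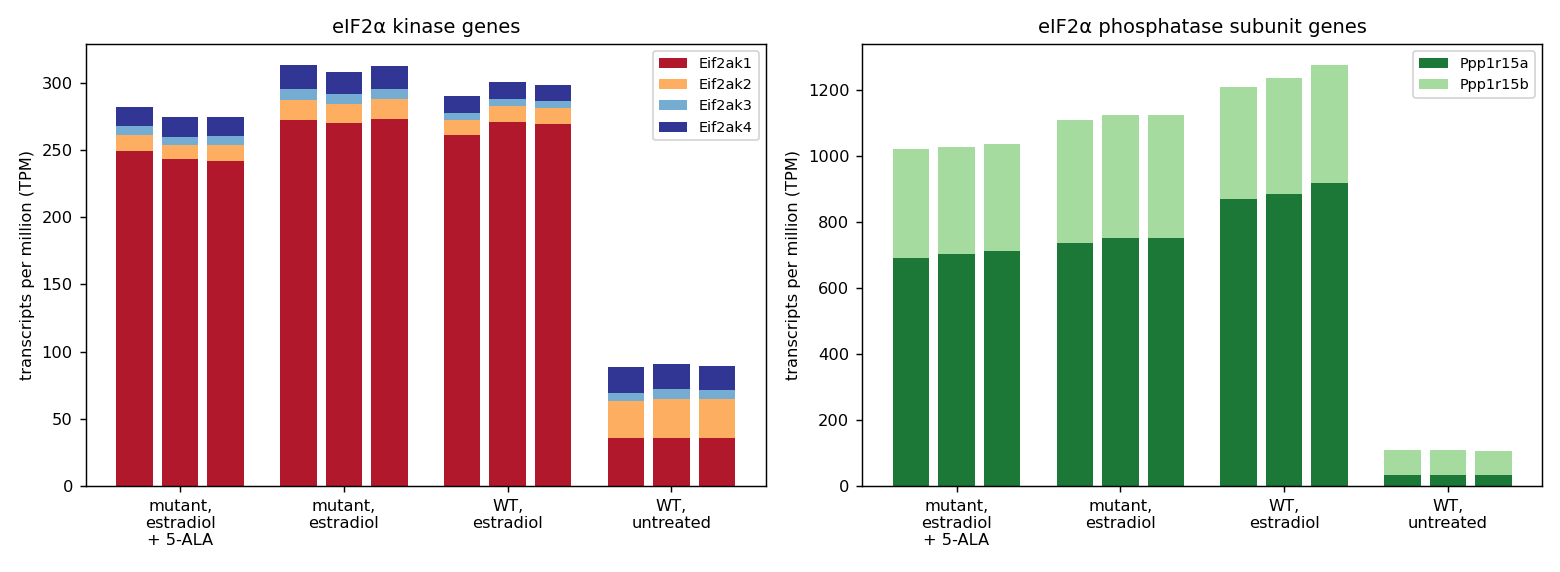
Stacked levels in TPM (linear axis from 0) of the 4 eIF2α kinase genes (left) and the 2 eIF2α phosphatase subunit genes (right); each bar is 1 library. Eif2ak1 fills 86.9% to 90.3% of the kinase bar in libraries with estradiol and 39.2% to 39.9% in untreated WT libraries, and Ppp1r15a fills 66.6% to 71.95% and 30.7% to 31.4% of the phosphatase bar. Totals in TPM shift with RNA composition, while the shares within a bar do not.

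Among the transcription factors, Atf4 was higher in mutant cells, with and without 5-ALA. ATF4 is the main effector of the response and activates genes of amino acid synthesis and uptake. The gene (chromosome 15, 80255184 to 80257541, plus strand) had 278, 289.9 and 305 CPM in mutant cells with 5-ALA, 258, 261 and 272 CPM in mutant cells, 105, 105 and 105 CPM in estradiol-treated WT cells, and 101, 99.1 and 102 CPM in untreated WT cells. All 6 mutant libraries were above all 6 WT libraries by a wide margin. Mutant over WT cells with estradiol gave a 2.51-fold rise (log2 1.33, SE 0.030, adjusted p = 4.13e-25), between 1.30 and 1.52 on the log2 scale over all 23 alternatives.

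Atf4 was not lower with 5-ALA. Mutant cells with 5-ALA were 2.77-fold above WT cells (log2 1.47, SE 0.030, adjusted p = 9.02e-26). Set against mutant cells without it, the log2 fold change was 0.14 (SE 0.027, adjusted p = 8.43e-05), but -0.06 (adjusted p = 0.0698) on the log2(TPM + 1) scale and 0.04 (adjusted p = 0.177) with library totals, so neither direction held under every scaling. Between estradiol-treated and untreated WT cells the value was log2 0.06 (SE 0.031, adjusted p = 0.0795), again with a sign that turned with the scaling: -0.28 with library totals and -0.23 on the log2(TPM + 1) scale, both past the threshold, and 0.10 with DESeq2 size factors (adjusted p = 0.00503). It also passed when the first mutant library, the second or the third library with 5-ALA or the first estradiol-treated WT library was left out (log2 0.08 to 0.09, adjusted p = 0.00355 to 0.0484).

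Atf5 (chromosome 7, 44812256 to 44816658, minus strand), a relative of Atf4 whose mRNA is translated in the same way and which acts in the mitochondrial stress response, had 273.5, 312 and 331 CPM in mutant cells with 5-ALA, 239, 244 and 263 CPM in mutant cells, 168, 168 and 173 CPM in estradiol-treated WT cells, and 77.1, 70.7 and 69.9 CPM in untreated WT cells. The groups stood apart in that order. Its exons share 82 bases with Il4i1 on the other strand. The rise was 2.33-fold with estradiol in WT cells (log2 1.22, SE 0.079, adjusted p = 3.04e-07) and 1.47-fold in mutant over WT cells (log2 0.55, SE 0.072, adjusted p = 0.000107). Set against WT cells, mutant cells with 5-ALA were higher (log2 0.85, SE 0.072, adjusted p = 5.56e-06). Over mutant cells without it the rise was log2 0.30 (SE 0.069, adjusted p = 0.00781), a call lost when the fit held those 2 groups alone (adjusted p = 0.063) and on the log2(TPM + 1) scale (log2 0.09, adjusted p = 0.18).

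Ddit3 (chromosome 10, 127290774 to 127296288, plus strand) encodes CHOP, a C/EBP family factor induced by ATF4 that promotes cell death under lasting stress. It had 319, 333 and 334 CPM in mutant cells with 5-ALA, 332, 332 and 347 CPM in mutant cells, 243, 244 and 253 CPM in estradiol-treated WT cells and 63.2, 62.7 and 64.1 CPM in untreated WT cells. The 2 mutant groups overlapped and lay above the WT groups. Its exons share 105 bases with another annotated Ddit3 entry on the same strand, not among the genes measured. They share 68 bases with Mars on the other strand. Estradiol raised it 3.89-fold in WT cells (log2 1.96, SE 0.028, adjusted p = 7.91e-32), and mutant cells were 1.37-fold above WT cells with estradiol (log2 0.45, SE 0.025, adjusted p = 4.74e-16). The value with 5-ALA was log2 -0.04 (SE 0.024, adjusted p = 0.239), and past the threshold at -0.14 with library totals and -0.22 on the log2(TPM + 1) scale. Relative to WT cells, those with 5-ALA were 1.33-fold higher (log2 0.42, SE 0.025, adjusted p = 5.32e-15).

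Trib3 (chromosome 2, 152337422 to 152344032, minus strand) is a target of ATF4 and CHOP whose protein binds ATF4 and restrains it. It had 64.9, 71.6 and 72.9 CPM in mutant cells with 5-ALA, 53.6, 51.4 and 53.98 CPM in mutant cells, 18.9, 20.2 and 21.9 CPM in estradiol-treated WT cells, and 61.9, 59.5 and 61.0 CPM in untreated WT cells. Estradiol-treated WT cells were the low group and no groups overlapped. In WT cells it fell with estradiol, 3.01-fold (log2 -1.59, SE 0.049, adjusted p = 4.21e-22). Mutant cells were 2.62-fold above WT cells with estradiol (log2 1.39, SE 0.050, adjusted p = 1.75e-19), and those with 5-ALA 3.46-fold (log2 1.79, SE 0.049, adjusted p = 5.68e-22); these 3 values share the estradiol-treated WT libraries. 5-ALA in mutant cells gave a further 1.32-fold rise (log2 0.40, SE 0.041, adjusted p = 6.77e-09). It was the only one of the 10 genes whose call with 5-ALA held under all 23 alternatives, with log2 values of 0.19 to 0.45.

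Both phosphatase subunit genes rose with estradiol. PPP1R15A (GADD34) and PPP1R15B (CReP) each bring protein phosphatase 1 to eIF2α and so restore translation; the first is induced by stress, the second made at all times in most cells. Ppp1r15a (chromosome 7, 45522916 to 45526268, minus strand) had 1049, 1088 and 1113 CPM in mutant cells with 5-ALA, 980.3, 1004 and 1018 CPM in mutant cells, 1341, 1349 and 1405 CPM in estradiol-treated WT cells, and 42.8, 41.5 and 41.9 CPM in untreated WT cells. The 4 groups did not overlap, and the untreated libraries were lower by more than an order of magnitude. Estradiol raised it 32.4-fold in WT cells (log2 5.02, SE 0.031, adjusted p = 3.05e-40). Its exons share 12 bases with Tulp2.

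In the mutant cells, where Atf4 was higher, Ppp1r15a was lower. It stood 1.36-fold below estradiol-treated WT cells (log2 -0.45, SE 0.025, adjusted p = 1.32e-15), a fall called under all 23 alternatives (-0.48 to -0.25). Mutant cells with 5-ALA were 1.26-fold lower than WT cells (log2 -0.33, SE 0.025, adjusted p = 1.69e-12), also under all 23 (-0.36 to -0.28). The step with 5-ALA over mutant cells was log2 0.11 (SE 0.025, adjusted p = 0.000513), but -0.09 (adjusted p = 0.00921) on the log2(TPM + 1) scale.

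Ppp1r15b (chromosome 1, 133131143 to 133139783, plus strand) had 1177, 1196 and 1200.5 CPM in mutant cells with 5-ALA, 1148, 1167 and 1173 CPM in mutant cells, 1236, 1264 and 1287 CPM in estradiol-treated WT cells, and 209, 204 and 210.1 CPM in untreated WT cells. The rise with estradiol in WT cells was 6.07-fold (log2 2.60, SE 0.025, adjusted p = 3.94e-36). Mutant cells were at log2 -0.12 from WT cells with estradiol (SE 0.023, adjusted p = 3.98e-05), a direction that turned with library totals (0.035) and on the log2(TPM + 1) scale (0.09). Mutant cells with 5-ALA were at log2 -0.08 from WT cells (SE 0.023, adjusted p = 0.00226), a call lost with library totals (adjusted p = 0.201). For 5-ALA in mutant cells the value was log2 0.04 (SE 0.023, adjusted p = 0.234), or -0.19 on the log2(TPM + 1) scale. The exons of Ppp1r15b share 640 bases with Gm26616 on the other strand, a gene not among those measured.

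Between the phosphatase subunits the balance moved too. Ppp1r15a over Ppp1r15b, in TPM, was 2.11, 2.16 and 2.20 in mutant cells with 5-ALA, 1.99, 2.01 and 2.01 in mutant cells, 2.57, 2.52 and 2.56 in estradiol-treated WT cells, and 0.450, 0.457 and 0.444 in untreated WT cells. The inducible subunit gene was thus the lower of the pair without estradiol and the higher with it. As with the kinase share, these ratios did not overlap between groups, and the exact permutation test gave its smallest p, 0.1, for every comparison.

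On the TPM scale, which takes transcript length into account, the order of the 10 levels changed with the state of the cells. In estradiol-treated WT cells Ppp1r15a led at 890.4 ± 23.9 TPM, followed by Ddit3 (481 ± 13.8 TPM), Ppp1r15b (349.7 ± 9.70 TPM), Eif2ak1 (267 ± 5.11 TPM), Atf5 (145 ± 2.34 TPM) and Atf4 (94.4 ± 0.376 TPM), with Trib3 (16.2 ± 1.38 TPM), Eif2ak4 (12.2 ± 0.183 TPM), Eif2ak2 (11.7 ± 0.473 TPM) and Eif2ak3 (5.11 ± 0.181 TPM) well below (SD, n = 3 each). No neighbours in this order overlapped. In mutant cells Ddit3 (753 ± 16.2 TPM) and Ppp1r15a (747 ± 8.11 TPM) led with overlapping libraries, and Eif2ak1 (271.8 ± 1.27 TPM) and Atf4 (271 ± 5.44 TPM) overlapped as well. With 5-ALA, Ppp1r15a (702 ± 10.9 TPM) was above Ddit3 (648 ± 6.63 TPM), while Atf4 (260.1 ± 8.57 TPM), Atf5 (259 ± 20.5 TPM) and Eif2ak1 (245 ± 3.91 TPM) overlapped from each to the next. In untreated WT cells Ddit3 (149 ± 2.42 TPM) and Atf4 (110.7 ± 0.301 TPM) led, and Ppp1r15a (33.6 ± 0.686 TPM) came after Trib3 (58.2 ± 0.561 TPM) and Eif2ak1 (35.5 ± 0.145 TPM).

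**Figure D4:**
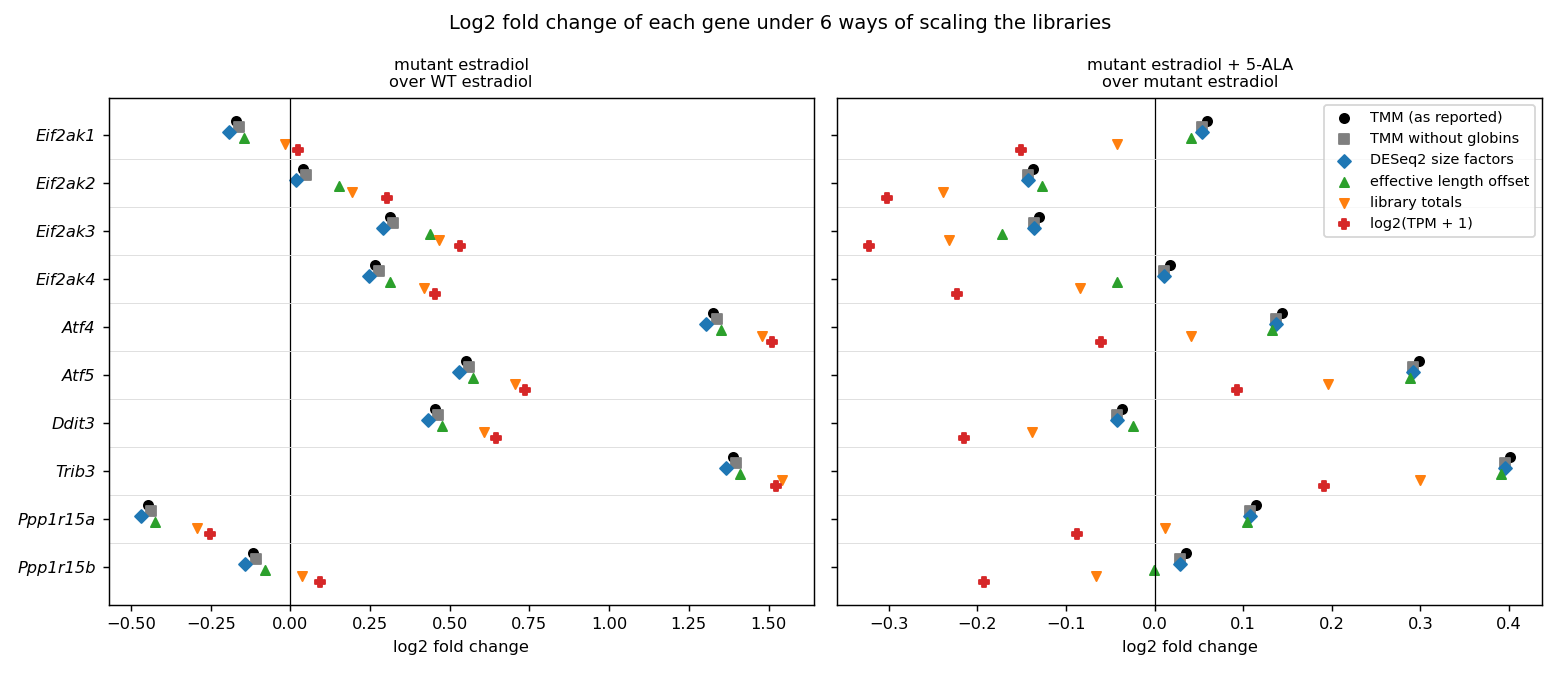
Log2 fold change of the 10 genes in mutant over WT cells with estradiol (left) and with 5-ALA over mutant cells (right) under 6 ways of scaling; the black circle is the value reported. On the left, Atf4, Atf5, Ddit3 and Trib3 stay to the right of 0 and Ppp1r15a to the left under every scaling, while Eif2ak1 and Ppp1r15b cross 0. On the right, Trib3 and Atf5 stay to the right of 0, and Eif2ak1, Eif2ak4, Atf4, Ppp1r15a and Ppp1r15b cross it.

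Genes that ATF4 and CHOP are known to activate were mostly higher in mutant cells. Of 38 listed, 31 were tested; Phgdh, Chac1, Vldlr, Cth, Gdf15, Fgf21 and Stc2 did not pass the filter on low counts, and Chac1 had no counts at all. In mutant over WT cells with estradiol, 21 of the 31 were called higher and 8 lower, with a median log2 fold change of 0.51 beside -0.01 over all genes. Of all genes tested, 35.1% were called higher and 33.6% lower there. The largest changes were in Nupr1, a stress-induced chromatin protein gene (49.5 ± 2.60 CPM in mutant cells and 5.15 ± 0.546 CPM in WT cells), Pck2, mitochondrial phosphoenolpyruvate carboxykinase (17.7 ± 0.823 and 2.31 ± 0.199 CPM), and Psat1 of serine synthesis (159.6 ± 1.48 and 29.98 ± 0.977 CPM; SD, n = 3 each). The list's split stayed between 20 and 22 higher and 5 and 8 lower over the 23 alternatives.

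With estradiol in WT cells, 11 of the 31 target genes were called higher and 18 lower, at a median of -1.101, where 43.3% of all genes tested were called higher and 46.4% lower. Pck2 (2.31 ± 0.199 CPM with estradiol and 76.8 ± 1.48 CPM untreated) and Psat1 (29.98 ± 0.977 and 538 ± 13.2 CPM) were the largest falls. Sqstm1, an autophagy receptor gene, went the other way (1691 ± 18.1 CPM with estradiol and 99.998 ± 1.37 CPM untreated; log2 4.08, SE 0.026, adjusted p = 6.26e-40). Its exons share 580 bases with Mrnip on the other strand. The comparison of mutant over WT cells uses the same estradiol-treated WT libraries as this one.

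For 5-ALA in mutant cells, 17 of the 31 target genes were called higher and 7 lower, at a median of 0.09, beside 21.6% and 21% of all genes tested. This split turned to 7 higher and 14 lower on the log2(TPM + 1) scale. The cystine transporter gene Slc7a11 was called higher (46.9 ± 1.12 CPM with 5-ALA and 11.4 ± 0.805 CPM without; log2 2.05, SE 0.051, adjusted p = 1.90e-23), as was Sqstm1 (969 ± 21.1 and 425 ± 4.38 CPM; log2 1.19), and the mTORC1 inhibitor gene Ddit4 was called lower (27.1 ± 1.58 and 42.9 ± 4.64 CPM; log2 -0.66, adjusted p = 3.36e-06). For Slc7a11 the difference was log2 1.05 on the log2(TPM + 1) scale, where that of Sqstm1 was 1.06. Slc7a11 and Sqstm1 are also known targets of the oxidative stress factor NRF2. Mutant cells with 5-ALA were above WT cells for Nupr1, Pck2 and Psat1, at log2 2.89, 2.65 and 2.27, and 21 of the 31 genes were called higher and 7 lower in that comparison, at a median of 0.73. There, 33.3% of all genes tested were called higher and 29% lower.

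**Figure D5:**
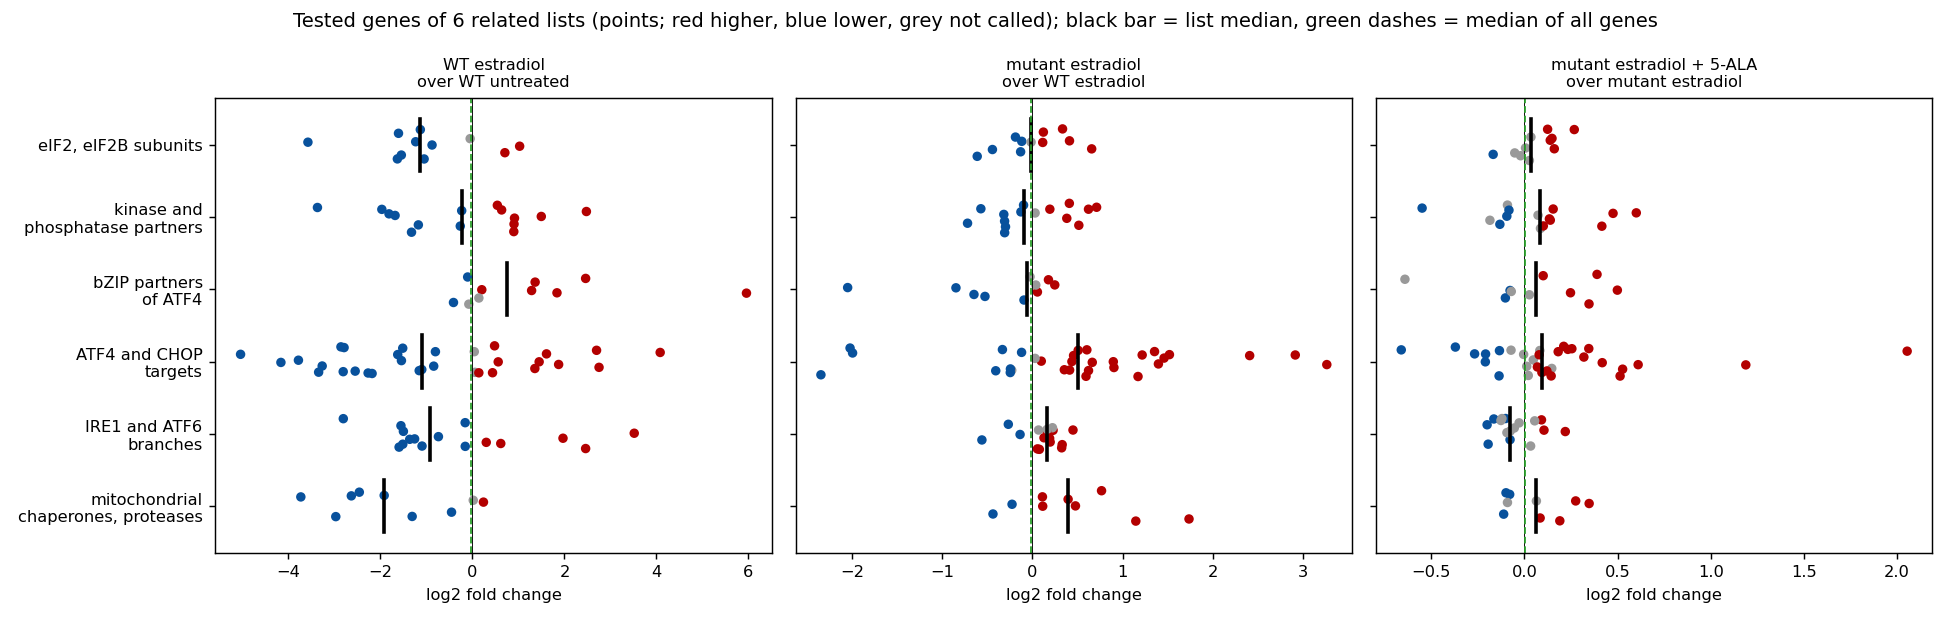
Log2 fold change of each tested gene of 6 related lists in 3 comparisons (points; red called higher, blue called lower, grey not called), with the list median as a black bar and the median of all genes as green dashes. The ATF4 and CHOP targets centre at 0.51 in mutant over WT cells and at -1.101 with estradiol in WT cells. Those comparisons share the estradiol-treated WT libraries. With 5-ALA the medians lie between -0.08 and 0.09, and those of 5 lists change sign with the scaling.

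Of 12 genes of eIF2, its exchange factor eIF2B and related factors, 11 were tested, and in WT cells 2 were called higher and 8 lower with estradiol, at a median of -1.13, beside 43.3% higher and 46.4% lower of all genes tested. The eIF2B subunit genes Eif2b3 (6.43 ± 0.656 CPM with estradiol and 77.01 ± 0.927 CPM untreated) and Eif2b1 (26.4 ± 0.535 and 81.6 ± 4.24 CPM) and the eIF2γ gene Eif2s3x (172 ± 4.96 and 523 ± 9.98 CPM) fell most. Between mutant and WT cells 5 were higher and 5 lower, at a median of -0.01, with Eif2b3 at log2 0.66 (SE 0.069, adjusted p = 1.36e-09). That split was 7 higher and 2 lower on the log2(TPM + 1) scale. With 5-ALA 5 were higher and 1 lower, at 0.03, but 1 higher and 4 lower by library totals and 1 higher and 7 lower on the log2(TPM + 1) scale, and none was lower without the second mutant library. Over WT cells, mutant cells with 5-ALA had 4 higher and 3 lower, at 0.03, or 7 higher by library totals. Among all genes tested, 35.1% were called higher and 33.6% lower in mutant over WT cells. These shares were 21.6% and 21% with 5-ALA over mutant cells, and 33.3% and 29% for mutant cells with 5-ALA over WT cells.

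Partner genes of the kinases and phosphatases, 15 of 16 tested, were split with estradiol in WT cells, 7 higher and 8 lower at a median of -0.23, which is near the 43.3% and 46.4% of all genes tested. The chaperone gene Hsp90ab1, whose product helps HRI fold, fell most (360 ± 6.09 CPM with estradiol and 3717 ± 106 CPM untreated), and Impact, an inhibitor of GCN2 activation, was the largest rise (249 ± 3.19 and 44.6 ± 0.796 CPM; log2 2.48, SE 0.026, adjusted p = 3.56e-35). Between mutant and WT cells 6 were higher and 8 lower, at -0.10, but 8 higher and 6 lower by library totals. Prkra rose most there (8.34 ± 0.237 and 5.08 ± 0.362 CPM, log2 0.71, SE 0.084, adjusted p = 1.22e-08). Dele1, whose product carries mitochondrial stress to HRI in human cells, was also higher (39.5 ± 1.77 and 25.7 ± 0.629 CPM, log2 0.62, SE 0.041, adjusted p = 4.78e-14). The phosphatase catalytic subunit gene Ppp1cb was lower (414 ± 17.0 and 679.9 ± 10.6 CPM, log2 -0.72, SE 0.026, adjusted p = 3.12e-20). With 5-ALA Impact was higher (307 ± 2.39 and 203 ± 2.82 CPM, log2 0.60) and Prkra lower (log2 -0.55, SE 0.081, adjusted p = 2.37e-06). In all, 7 were higher, led by Impact, and 4 lower, at 0.09. That split was 3 higher and 6 lower by library totals and 3 higher and 8 lower on the log2(TPM + 1) scale, and 2 were lower without the first library with 5-ALA. Over WT cells, mutant cells with 5-ALA had 7 of each, at 0.13. Among all genes tested, 35.1% were called higher and 33.6% lower in mutant over WT cells. These shares were 21.6% and 21% with 5-ALA over mutant cells, and 33.3% and 29% for mutant cells with 5-ALA over WT cells.

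Of the bZIP partners and relatives of ATF4, 10 of 14 were tested; Atf3, Cebpa and Batf3 did not pass the filter and Cebpd was not analysed here. With estradiol in WT cells 6 rose and 2 fell, or 1 without the first estradiol-treated WT library, at a median of 0.74, and the AP-1 gene Jun rose most (185 ± 8.53 CPM with estradiol and 2.94 ± 0.315 CPM untreated; log2 5.96, SE 0.14, adjusted p = 9.81e-11). Between mutant and WT cells with estradiol Jun was lower (44.3 ± 3.92 and 185 ± 8.53 CPM; log2 -2.05, SE 0.093, adjusted p = 3.89e-08), and 3 of the list were higher and 5 lower, at -0.06, but 5 higher and 4 lower on the log2(TPM + 1) scale. With 5-ALA 5 were higher and 2 lower, at 0.06, but 4 higher and 5 lower by library totals and 3 higher and 4 lower on the log2(TPM + 1) scale. The count lower was 4 without the first mutant library and 1 without the second, the third or any untreated WT library. Over WT cells, mutant cells with 5-ALA had 2 higher, or 1 by the DESeq2 Wald test, and 4 lower, at -0.11. Among all genes tested, 43.3% were called higher and 46.4% lower with estradiol in WT cells, and 35.1% and 33.6% in mutant over WT cells. These shares were 21.6% and 21% with 5-ALA over mutant cells, and 33.3% and 29% for mutant cells with 5-ALA over WT cells.

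The other arms of the unfolded protein response hold genes that work beside PERK. Of 16 genes of the IRE1 and ATF6 branches, 5 rose and 11 fell with estradiol in WT cells, at a median of -0.92. Among all genes tested, 43.3% were called higher and 46.4% lower. The co-chaperone gene Dnajb9 (146 ± 2.57 CPM with estradiol and 12.7 ± 0.510 CPM untreated) and Atf6 (348 ± 4.09 and 63.2 ± 0.984 CPM) rose, and the disulfide isomerase gene Pdia4 (7.78 ± 0.232 and 54.5 ± 1.69 CPM) fell. In mutant over WT cells 10 were higher and 3 lower, at 0.16, beside 35.1% and 33.6% of all genes tested. On the log2(TPM + 1) scale 13 were higher and 1 lower. Sel1l was at log2 0.45 (SE 0.028, adjusted p = 9.99e-15) and Dnajb9 at -0.56 (SE 0.027, adjusted p = 4.30e-17). With 5-ALA 3 were higher and 5 lower, at -0.08, beside 21.6% and 21% of all genes tested. That split was 1 higher and 10 lower by library totals and 0 higher and 14 lower on the log2(TPM + 1) scale. Over WT cells, mutant cells with 5-ALA had 6 higher and 3 lower, at 0.10, or 5 lower with DESeq2 size factors in edgeR. There, 33.3% of all genes tested were called higher and 29% lower.

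Of 9 genes of mitochondrial chaperones and proteases, 1 rose and 7 fell with estradiol in WT cells, at a median of -1.92, with 0 to 2 rising over the alternatives. Among all genes tested, 43.3% were called higher and 46.4% lower. Hspd1, the HSP60 gene, fell most (123 ± 1.95 CPM with estradiol and 1635 ± 41.3 CPM untreated). In mutant over WT cells 7 were higher and 2 lower, at 0.40, beside 35.1% and 33.6% of all genes tested. All 23 alternatives gave 7 higher and 1 to 2 lower. The mitochondrial HSP90 gene Trap1 (63.1 ± 0.879 and 18.9 ± 0.302 CPM; log2 1.74, SE 0.037, adjusted p = 8.28e-26) and the protease gene Lonp1 (267 ± 0.977 and 120.3 ± 1.56 CPM; log2 1.15) led. With 5-ALA 4 were higher and 3 lower, at 0.06, or 2 higher and 5 lower on the log2(TPM + 1) scale. Of all genes tested, 21.6% were called higher and 21% lower there. Mutant cells with 5-ALA over WT cells had 7 higher and 2 lower, at 0.46, beside 33.3% and 29% of all genes tested.

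The 5 genes whose log2 CPM was most like that of Eif2ak1 over the 12 libraries, among 7717 genes with a mean of at least 10 CPM, were Ppp1r15b (Pearson r = 0.99994), Flcn (0.99984), Fech (0.99977), Sgsm3 (0.99976) and Hace1 (0.99975). These values rest on the gap between untreated cells and the rest, since the libraries fall into clusters. Within the 9 libraries with estradiol, themselves in 3 groups, r with Eif2ak1 was 0.978 for Ppp1r15b, 0.994 for Flcn, 0.933 for Fech, 0.899 for Sgsm3 and 0.955 for Hace1, and Spearman's rho 1, 0.983, 0.783, 0.9 and 0.85. Scaling factors are shared by all genes of a library and add to such likeness. For Atf4 they were Aars (0.99914), Ttc12 (0.99812), Chst10 (0.99763), Cd274 (0.99715) and Dhrs1 (0.99702), where the gap lies between the 6 mutant and the 6 WT libraries. Aars, alanyl-tRNA synthetase, is one of the listed ATF4 targets, and its exons share 1326 bases with Exosc6. It had 866, 825, 443 and 431 CPM on average in mutant cells with 5-ALA, mutant cells, estradiol-treated WT cells and untreated WT cells, and r with Atf4 was 0.928 (rho 1) within the 6 mutant libraries and 0.818 (rho 0.886) within the 6 WT libraries. For Cd274 and Dhrs1 r within the WT libraries was -0.090 (rho -0.371) and 0.067 (rho 0.086). For Ttc12 and Chst10 it was 0.4475 (rho 0.754) and 0.610 (rho 0.6). In the group order given for Aars, Ttc12 averaged 26.3, 19.96, 0.0735 and 0.0507 CPM. Chst10 averaged 47.3, 36.4, 2.11 and 1.59 CPM, so both were low in the WT libraries.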

How the data were processed

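TRIzol-purified total RNA entered a TruSeq protocol, per the labels' protocols. The submitters' processing notes name RSEM 1.2.20, Bowtie 1.1.1, CASAVA 1.8.2 and mm10. Whether counting used strand is not given in the sources used here. The authors' tables hold, per the file headers, RSEM expected counts, TPM and effective lengths for 25097 genes, of which 24746 identifiers matched a symbol in GENCODE M21. Expected counts divide shared reads by a model.

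Expected counts were rounded, filtered with filterByExpr by group (12115 genes kept) and scaled by TMM. They were fitted with edgeR 4.0.16 (R 4.3.3) as 4 group means over 12 libraries, robustly, so that groups share 1 estimate of the spread (common biological coefficient of variation 3.34%). Groups were compared with the quasi-likelihood F test, with Benjamini-Hochberg adjustment over all 12115 genes and a threshold of 0.05. SEs are approximate, the size of a log2 fold change divided by the root of its F. The fit was checked on simulated data in which few genes differed, up and down alike. Such data cannot probe the assumption of TMM that most genes are unchanged. Replicates of a group correlated at 0.99675 to 0.9981 (Pearson, log2 CPM). CPM are expected counts scaled by TMM-adjusted library size; TPM, as deposited by the authors, served for levels between genes and 2 alternatives with limma 3.58.1 (pseudocounts 1 and 0.1). DESeq2 1.42.0 gave another alternative. Promoters came from RefSeq (GRCm38.p6); protein sequences were not used here.

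All 10 members are named; from each of 6 related lists, up to 3 called genes with the largest absolute change and at least 1 CPM per comparison were eligible. For Eif2ak1 and Atf4 the 5 most correlated genes are named. The members and lists were chosen with earlier results of these data known. Alternatives for the lists were added after the values were seen. Atf6 is in 2 lists. Listed genes not passing the filter were not tested.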

Additional observations from a re-analysis of the deposited data

How the results depend on the processing

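Of 920 alternative values of the members' log2 fold changes (40 results, 23 alternatives each), 832 kept direction and side of the threshold, 24 fell short of it, 28 newly passed it and 36 changed sign; for each value that changed below, the cause was not tested. The alternatives for list genes were added after seeing the data. Small differences between the estradiol groups depended most on the scaling, while every member had at least 321 expected counts in each library. For mutant over WT cells, library totals called 1 member lower rather than 3, as did both TPM scales, which also called 2326 (pseudocount 1) and 2309 (0.1) genes lower rather than 4076. The share of calls that were higher was 51.1% as reported, 66.5% with library totals (5650 higher, 2844 lower) and 70.7% and 70.8% with TPM (5618 and 5596 higher). For 5-ALA in mutant cells it was 50.7% as reported, 23.6% with library totals (1434 higher, 4642 lower) and 12.4% and 12.2% with TPM (806 higher and 5719 lower, and 789 and 5663). There, members called higher were 3 with the 2 groups alone, 2 with library totals and 1 with each TPM scale, and members called lower 0 with the effective length offset, 5 with library totals and 7 with each TPM scale, and 0 to 2 when 1 library was left out. With 1 library left out they were 0 without mutant library 3 or 5-ALA library 2 and 2 without 5-ALA library 3. With estradiol in WT cells 5 members were called lower with library totals and with each TPM scale, rather than 3. Of the 12115 genes tested, 6541 were called lower there with library totals. With TPM 6291 (pseudocount 1) and 6276 (0.1) were, rather than 5621.

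Changes of sign with estradiol in WT cells were those of Atf4 (-0.28 with library totals, -0.2265 and -0.2285 with TPM and pseudocounts of 1 and 0.1) and Eif2ak3 (0.11 with the filter of 10 CPM in 3 libraries, 0.013 with the 2 groups alone, 0.0177 with DESeq2 size factors, 0.0179 with the DESeq2 test, 0.0019 with TMM factors computed without globin genes, and -0.053 to 0.015 with 1 library left out). In mutant over WT cells they were Eif2ak1 (0.0244 and 0.0245 with TPM) and Ppp1r15b (0.035 with library totals, 0.0915 and 0.0917 with TPM). With 5-ALA over mutant cells they were Atf4 (-0.0600 and -0.0602 with TPM), Eif2ak1 (-0.042 with library totals, -0.1504 and -0.1509 with TPM), Eif2ak4 (-0.042 with the effective length offset, -0.084 with library totals, -0.2231 and -0.2358 with TPM, and -0.0099 to 0.026 with 1 library left out), Ppp1r15a (-0.0880 and -0.0881 with TPM), Ppp1r15b (-0.0008 with the offset, -0.067 with library totals, -0.1923 and -0.1928 with TPM) and the list gene Hspd1 (-0.0112 and -0.0113 with TPM). In mutant cells with 5-ALA over WT cells it was Eif2ak2 (0.025 with the offset, 0.0016 and 0.0017 with TPM). The call of Eif2ak1 with 5-ALA was also lost without mutant library 1 or 2, 5-ALA library 2 or 3, or any 1 of the estradiol-treated WT libraries (adjusted p = 0.0622 to 0.163).

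Replicate numbers in the labels do not pair the libraries: deviations from the group means of same-numbered libraries correlated at -0.17 to 0.14 (18 pairs), and of differently numbered ones at -0.15 to 0.18 (36 pairs). With the replicate number as a block, the edgeR fit called 6 members higher and 3 lower with estradiol in WT cells, Atf4 being the added one (log2 0.0605, adjusted p = 0.0468), and changed no other member's call; it called 5215 genes higher and 5617 lower there, 4216 and 4029 in mutant over WT cells, 2549 and 2483 with 5-ALA, and 3989 and 3467 in mutant cells with 5-ALA over WT cells.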
